A study of Mus musculus with 16 samples.

Results

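The 29 genes described here encode enzymes of cholesterol synthesis, enzymes of fatty acid synthesis, and the proteins that sense and carry sterols. They were listed by name, with earlier results of these data known, and all 29 were found among the 25719 genes measured in trigeminal ganglia of mice. In this ganglion, the somata of facial sensory neurons lie among satellite glia and the Schwann cells that myelinate their axons. Nogo-A is the longest product of the gene Rtn4 and a known brake on the growth of neurites. Libraries of whole ganglia fell into 4 groups of 4: ganglia lacking Nogo-A (KO) taken 25 days after birth (P25 KO), wild-type ganglia of that age (P25 WT), and KO and wild-type ganglia of embryonic day 14 (E14 KO and E14 WT). The labels name no treatment for any group. The sources used here do not give the KO allele, the cells in which it acts or the strain.

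Cells make cholesterol from acetyl-CoA. The mevalonate arm builds farnesyl diphosphate, squalene synthase joins farnesyl units into squalene, squalene is closed to lanosterol, and a chain of oxidases, reductases and an isomerase turns lanosterol into cholesterol. The transcription factors SREBP1 and SREBP2, made from Srebf1 and Srebf2, switch these genes on. They are held in the endoplasmic reticulum by SCAP and the INSIG proteins while sterols are plentiful, and they travel to the Golgi for activation when sterols run low. Myelin is unusually rich in cholesterol and in long-chain fatty acids, and Schwann cells are known to make much of their own cholesterol while they wrap axons. At E14 the axons of the trigeminal nerve are not yet myelinated, and at P25 myelination is well advanced.

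Library totals ran from 15532373 to 29562379 counts. In a bulk sample, fewer cells of a type and less RNA per cell cannot be told apart, and each level below is a share of the RNA of a mixed tissue. Replicates are ganglia. E14 KO replicates 1 and 3 were named as right and left ganglion under a shared number, as were E14 WT replicates 2 and 4, so each pair may come from 1 animal. The p-values speak of differences among ganglia. The labels name trigeminal ganglia, and the summed level of 15 sensory neuron markers was 22442 to 24217 CPM (the count scaled to a common library total) in P25 KO, 22766 to 26973 CPM in P25 WT, 17367 to 19739 CPM in E14 KO and 15960.2 to 20777 CPM in E14 WT libraries. Rtn4 as a whole gene had 364, 380, 345 and 384 CPM in P25 KO against 493, 542, 512 and 406 CPM in P25 WT libraries, and 291, 405, 260 and 236 CPM in E14 KO against 328, 144, 521 and 444 CPM in E14 WT libraries. All P25 KO libraries were below all P25 WT libraries, and the E14 groups overlapped. The log2 fold changes of KO over WT were -0.41 at P25 (adjusted p = 1) and -0.27 at E14 (adjusted p = 0.943) by edgeR's quasi-likelihood test. The E14 value was -0.53 without E14 WT replicate 2 and -0.02 without E14 WT replicate 3. The gene total adds all Rtn4 transcripts, so it is no direct check of Nogo-A.

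E14 WT replicate 2 stood apart from its group. It was the highest of its group for 13 of the 29 genes and the lowest for 11. Its deviations from the mean of all E14 libraries, KO and WT together, followed transcript GC content and length. These took up 62.3% of their variance over 12457 genes. The share was 2.58% to 46.9% in the other libraries, each set against the mean of its own stage. Calls that change without it are given with and without it. P25 KO replicate 4 was the lowest of its group for 20 of the 29 genes, and it also had the lowest summed level of peripheral myelin genes, 17411 CPM.

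Since these genes share regulators, the promoters of a few of them are shown first. Of the 29 genes, 24 had an entry in the RefSeq promoter table of GRCm38.p6, which covers 250 bases before the transcription start and 50 after it. The classical sterol response element, searched as TCACNCCAC on both strands, was found in Hmgcs1 alone, which is 4.17% of the 24 promoters, against 1.44% of the promoters of all genes in the table. Shorter and shifted forms of the element were added after the first search. CACCCCAC, which overlaps the element by its last letters, was present in Acat2 and Hmgcs1 (8.33% against 3.3% of all promoters), and ATCACNCCA in Srebf2 (4.17% against 0.992%). The motifs of the usual partners of SREBP were common: CCAAT, the letters bound by NF-Y, was present in 20 of 24 promoters (83.3% against 41.1%), and the GC box GGGCGG, bound by Sp1, in 20 of 24 (83.3% against 38.2%). The E-box CACGTG was present in 5 of 24 (20.8% against 8.09%). A match is a description of these letters and not a site shown to be bound, and no match speaks only of this window.

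The 3 promoters with a form of the sterol element are printed, together with those of Sc5d and Fasn, which had the largest rise and the largest fall between the stages in WT ganglia and were picked after those values were seen. Capitals mark matches to the motifs above on either strand, so that ATTGG and CCGCCC stand for CCAAT and GGGCGG read from the opposite strand. Each sequence is written 5′ to 3′ along the gene. Hmgcs1 lies at chr13:119690101-119690400 on the plus strand, Srebf2 at chr15:82147019-82147318 on the plus strand, Acat2 at chr17:12960676-12960975 on the minus strand, Sc5d at chr9:42264251-42264550 on the minus strand and Fasn at chr11:120824498-120824797 on the minus strand.
Hmgcs1: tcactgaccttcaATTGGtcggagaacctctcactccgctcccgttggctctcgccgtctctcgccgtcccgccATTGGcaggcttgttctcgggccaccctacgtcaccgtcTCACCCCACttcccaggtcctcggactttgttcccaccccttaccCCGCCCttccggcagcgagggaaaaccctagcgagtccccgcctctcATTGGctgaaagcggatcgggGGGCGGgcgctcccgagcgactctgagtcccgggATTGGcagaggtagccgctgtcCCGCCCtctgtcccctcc
Srebf2: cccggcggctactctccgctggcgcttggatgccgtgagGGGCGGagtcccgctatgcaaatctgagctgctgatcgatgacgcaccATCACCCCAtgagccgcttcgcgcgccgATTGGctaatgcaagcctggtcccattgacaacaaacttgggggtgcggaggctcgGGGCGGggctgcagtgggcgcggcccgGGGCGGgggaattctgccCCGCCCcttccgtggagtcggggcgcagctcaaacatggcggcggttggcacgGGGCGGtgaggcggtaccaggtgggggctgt
Acat2: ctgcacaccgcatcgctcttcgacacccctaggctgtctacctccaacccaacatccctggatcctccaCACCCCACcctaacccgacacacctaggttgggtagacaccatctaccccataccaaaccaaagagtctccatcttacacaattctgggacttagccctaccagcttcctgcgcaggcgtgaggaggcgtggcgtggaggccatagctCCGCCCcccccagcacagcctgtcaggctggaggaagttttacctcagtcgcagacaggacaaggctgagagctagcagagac
Sc5d: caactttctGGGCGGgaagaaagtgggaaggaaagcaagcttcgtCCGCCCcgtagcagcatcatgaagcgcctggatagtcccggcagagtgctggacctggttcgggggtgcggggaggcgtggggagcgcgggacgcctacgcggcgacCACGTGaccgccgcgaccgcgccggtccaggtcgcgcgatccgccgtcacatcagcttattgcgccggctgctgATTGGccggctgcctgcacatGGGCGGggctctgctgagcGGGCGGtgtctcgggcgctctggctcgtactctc
Fasn: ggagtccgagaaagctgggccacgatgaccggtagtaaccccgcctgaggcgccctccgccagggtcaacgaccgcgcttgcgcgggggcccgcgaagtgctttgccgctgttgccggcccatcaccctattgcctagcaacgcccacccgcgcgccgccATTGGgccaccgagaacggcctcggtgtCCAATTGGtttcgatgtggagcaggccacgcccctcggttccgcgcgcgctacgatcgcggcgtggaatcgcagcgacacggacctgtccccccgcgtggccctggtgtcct
In Hmgcs1 the sterol element starts at position -137 from the transcription start, between CCAAT matches at -176 and -45, and GC boxes follow it at -92, -24 and 32. In Srebf2 the shifted form starts at -163, next to a CCAAT match at -135. Sc5d has an E-box at -98, a CCAAT match at -24 and 4 GC boxes, and no sterol element of these forms. Fasn holds 3 CCAAT matches, at -90, -62 and -59, of which the last 2 overlap on opposite strands, and no GC box.

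The comparison of stages asks how lipid synthesis genes differed between the unmyelinated embryonic ganglion and the ganglion after myelination. Some genes of the pathway were higher at P25, among them the elongase Elovl6, the sterol sensor Insig1 and 4 of the 8 enzymes from lanosterol to cholesterol. Fatty acid synthase, acetyl-CoA carboxylase and both SREBP genes were lower. In KO ganglia, 11 of the 29 genes rose at P25 relative to E14, 7 fell and 11 were not called. In WT ganglia, 13 rose, 7 fell and 9 were not called. A gene is called at an adjusted p under 0.05 from the quasi-likelihood F test of edgeR, adjusted by Benjamini and Hochberg's method over 15109 genes, and all 29 passed the low-count filter before it. Of all genes tested, 59.8% were called in KO (30.6% higher, 29.2% lower) and 59.6% in WT (29.7% higher, 29.8% lower). The called shares of the 29, 18 of them in KO and 20 in WT, were thus near the background, and the counts alone do not set these genes apart. The median log2 fold change of the 29 was 0.13 in KO and 0.33 in WT, beside 0.01 and 0.00 over all genes.

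The same 11 genes rose in both genotypes (Hmgcs1, Idi1, Msmo1, Hsd17b7, Ebp, Sc5d, Insig1, Insig2, Stard4, Elovl6 and Scd2), and the same 6 fell in both (Acat2, Lss, Srebf1, Srebf2, Acaca and Fasn). The share of all genes called in the same direction in both genotypes was not counted. These shared calls therefore have no background beside them and are read as a description only. The share of all genes whose stages did not overlap is not given here either. Statements below on overlap of the stages are thus also descriptions only. Acly fell in KO alone, Fdft1 and Sqle rose in WT alone and Scap fell in WT alone, but the stage effects of these 4 did not differ between genotypes in the test of the difference itself (adjusted p = 0.993 for each). The other 8, Mvk, Pmvk, Mvd, Fdps, Cyp51, Tm7sf2, Nsdhl and Dhcr7, were called in neither.

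**Figure D1:**
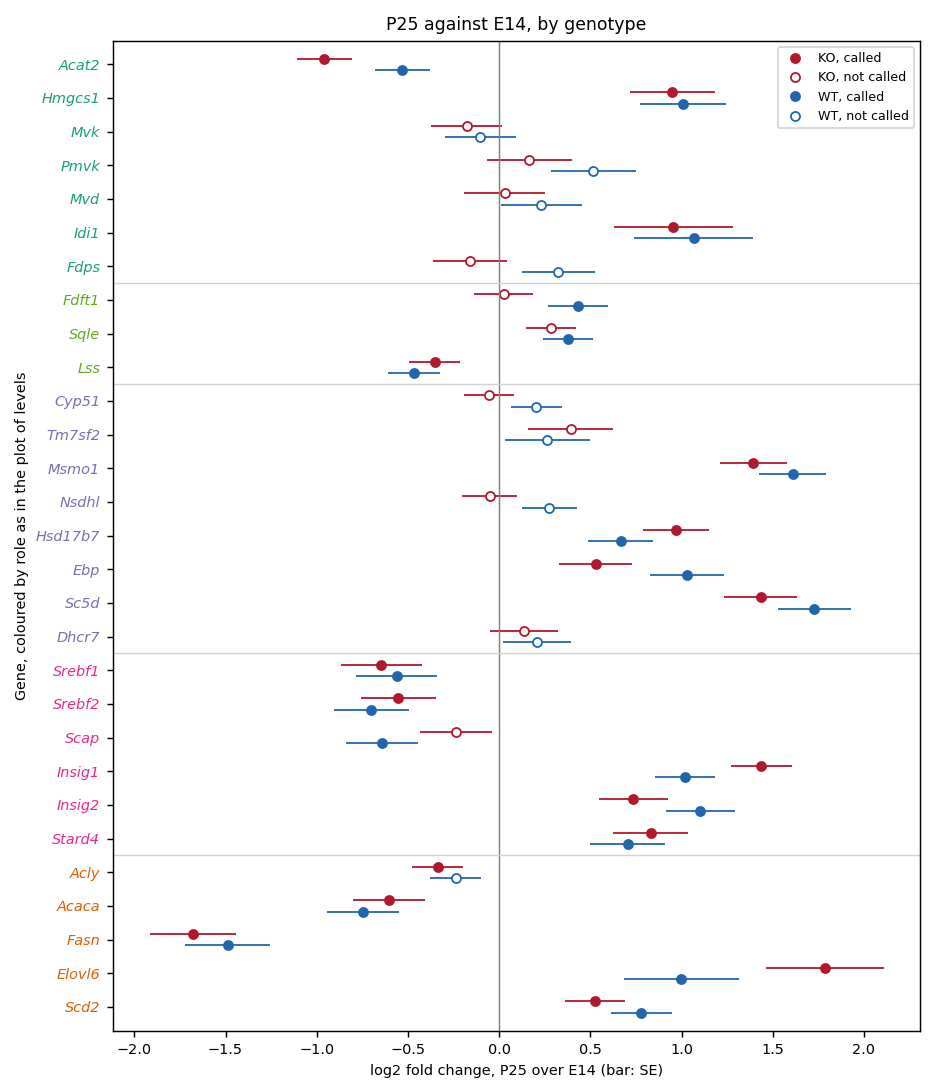
Log2 fold change of P25 over E14 (x axis) for each of the 29 genes (y axis, ordered and coloured by role) in KO (red) and WT ganglia (blue). Filled points are called at an adjusted p under 0.05, open points are not, and bars are 1 SE. Sc5d and Msmo1 among the sterol enzymes and Elovl6 among the fatty acid enzymes lie furthest right, and Fasn lies furthest left in both genotypes.

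In the mevalonate arm, the rise was carried by Hmgcs1 and Idi1, while Acat2 fell. Hmgcs1, which makes HMG-CoA, had 448, 472, 439 and 409.8 CPM in P25 KO and 485, 445, 434 and 358 CPM in P25 WT libraries, against 209.6, 319, 218 and 168 CPM in E14 KO and 218, 108, 276 and 253 CPM in E14 WT libraries. Every P25 library was above every E14 library, with log2 fold changes (± SE) of 0.95 ± 0.23 in KO (adjusted p = 0.00161) and 1.01 ± 0.23 in WT (adjusted p = 0.000974). Idi1, the isomerase that makes the reactive isoprene unit, had 18.2, 24.0, 14.4 and 15.2 CPM in P25 KO and 16.3, 19.3, 14.9 and 15.2 CPM in P25 WT libraries, against 6.82, 12.1, 10.2 and 7.81 CPM in E14 KO and 9.40, 2.13, 10.5 and 9.20 CPM in E14 WT libraries. The stages did not overlap, and Idi1 rose by 0.96 ± 0.33 in KO (adjusted p = 0.0159) and 1.07 ± 0.33 in WT (adjusted p = 0.00829) on the log2 scale. The KO call of Idi1 was lost without P25 KO replicate 2 and E14 KO replicate 1 (adjusted p = 0.0533 to 0.0582).

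Acat2, the cytosolic thiolase of the first step, went the other way, with 92.4, 103, 129.7 and 94.9 CPM in P25 KO and 122, 114, 120.5 and 140.2 CPM in P25 WT libraries, against 196, 198, 207 and 214 CPM in E14 KO and 207, 197, 149 and 164 CPM in E14 WT libraries. All P25 libraries were below all E14 libraries, and the log2 fold changes were -0.96 ± 0.15 in KO (adjusted p = 2.22e-05) and -0.53 ± 0.15 in WT (adjusted p = 0.00535). The other 4 enzymes of this arm, the kinases Mvk and Pmvk, the decarboxylase Mvd and the farnesyl diphosphate synthase Fdps, were not called in either genotype, and their stages overlapped. Their log2 fold changes ran from -0.18 (Mvk) to 0.16 (Pmvk) in KO and from -0.10 (Mvk) to 0.52 (Pmvk) in WT. Fdps averaged 236 ± 44.0 CPM in P25 KO and 296 ± 60.7 CPM in P25 WT, against 263 ± 57.9 CPM in E14 KO and 236 ± 49.0 CPM in E14 WT libraries (SD, n = 4 each). Pmvk in WT had an adjusted p of 0.0635, and it was called as higher in 8 of 16 fits that left out 1 library, with DESeq2 and under 4 other settings. Without E14 WT replicate 2, the WT values were 0.10 for Mvk, 0.40 for Mvd and 0.65 for Pmvk. Of these, Pmvk was then called by edgeR (adjusted p = 0.0216). Fdps overlaps Gm43738 on the same strand and Mvd overlaps Gm20388 on the opposite one in the GRCm38 annotation. Whether counting used the strand is not stated in the sources used here, so levels of both are less certain.

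Of the 3 enzymes that make squalene and lanosterol, the first 2 were higher at P25 in WT and the third was lower in both genotypes. Squalene epoxidase, Sqle, had 150.0, 157, 152 and 154 CPM in P25 KO and 151, 196, 166 and 175 CPM in P25 WT libraries, against 113, 140.5, 114 and 136 CPM in E14 KO and 131, 122, 139 and 138 CPM in E14 WT libraries. The stages did not overlap in either genotype, though the rise was called in WT (0.38 ± 0.14, adjusted p = 0.0223) and not in KO (0.28 ± 0.14, adjusted p = 0.0776). The WT call was lost with scaling by library totals alone (adjusted p = 0.0848) and with a fit to the WT libraries alone (adjusted p = 0.0986), and DESeq2 called the KO rise too (adjusted p = 0.0167). Without E14 WT replicate 2, edgeR also called the KO rise (0.28, adjusted p = 0.0363). Squalene synthase, Fdft1, averaged 331 ± 44.9 CPM in P25 KO and 393 ± 30.4 CPM in P25 WT, against 325 ± 48.9 CPM in E14 KO and 291 ± 53.7 CPM in E14 WT libraries (SD, n = 4 each). It rose in WT (0.43 ± 0.16, adjusted p = 0.0283), a call lost without P25 WT replicate 4 and E14 WT replicate 3 (adjusted p = 0.0507 to 0.0639), and its KO value was 0.02 ± 0.16 (adjusted p = 0.908). Its gene overlaps the end of Ctsb on the opposite strand.

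Lanosterol synthase, Lss, had 55.2, 54.0, 59.4 and 52.7 CPM in P25 KO and 55.8, 59.1, 64.3 and 44.7 CPM in P25 WT libraries, against 65.95, 73.5, 65.2 and 78.3 CPM in E14 KO and 76.2, 79.3, 76.3 and 77.5 CPM in E14 WT libraries. Each P25 library was below each E14 library, by -0.35 ± 0.14 in KO (adjusted p = 0.0378) and -0.47 ± 0.14 in WT (adjusted p = 0.00812) on the log2 scale. The KO call is a weak one: it was lost when any 1 of 10 libraries was left out (P25 KO replicate 1, P25 KO replicate 2, P25 KO replicate 4, P25 WT replicate 2, E14 KO replicate 2, E14 KO replicate 3, E14 KO replicate 4, E14 WT replicate 1, E14 WT replicate 3 and E14 WT replicate 4), with adjusted p = 0.0535 to 0.127.

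**Figure D2:**
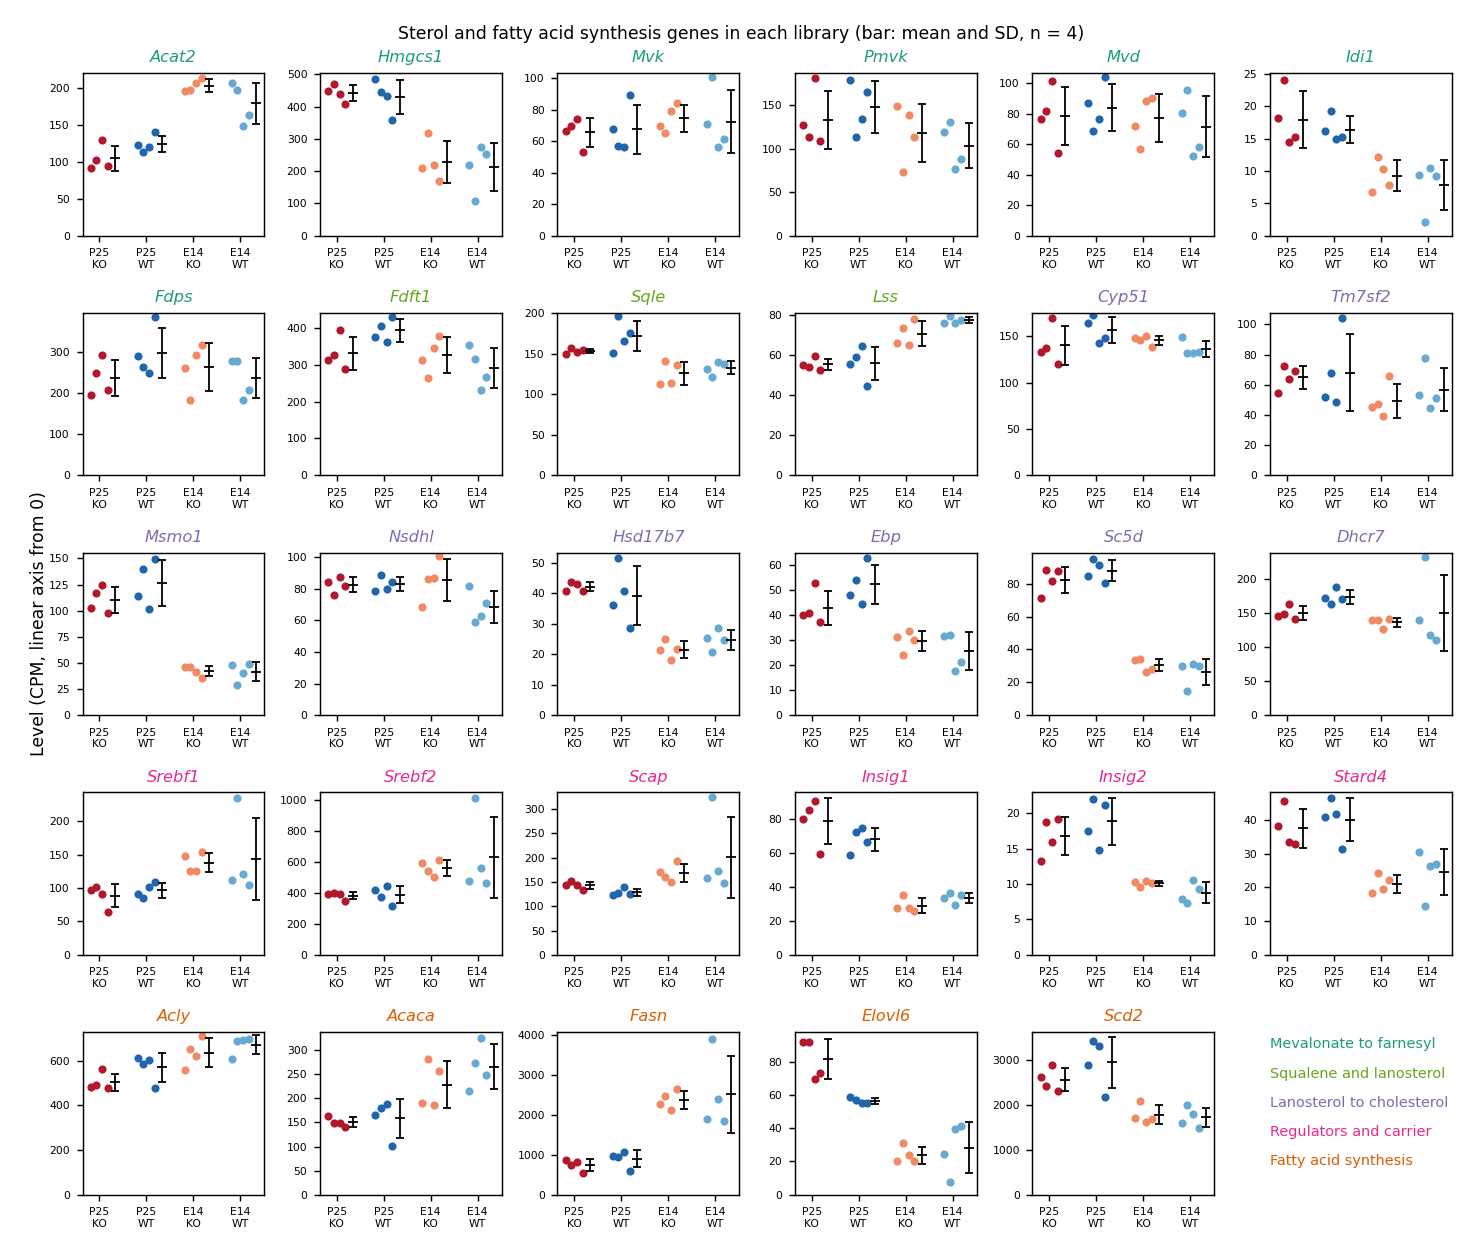
Level in CPM on a linear axis from 0 (y axis) of each of the 29 genes in every library, 1 panel per gene, with the groups P25 KO, P25 WT, E14 KO and E14 WT from left to right (x axis). Points are libraries and black bars are the mean and SD of 4. Sc5d and Msmo1 separate the stages with a wide gap, Fasn does so in the other direction, and single high E14 WT points in Srebf1, Srebf2 and Scap are all E14 WT replicate 2.

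The chain from lanosterol to cholesterol held the 2 largest rises in WT, those of Sc5d and Msmo1, while in KO Elovl6 and Insig1 rose more. Sc5d, the desaturase that acts on lathosterol, had 71.3, 88.5, 81.7 and 87.7 CPM in P25 KO and 84.5, 94.8, 91.2 and 80.6 CPM in P25 WT libraries, against 33.4, 33.9, 26.3 and 28.3 CPM in E14 KO and 30.1, 14.6, 31.2 and 30.0 CPM in E14 WT libraries. The lowest P25 library (71.3 CPM) was far above the highest E14 library (33.9 CPM), and the log2 fold change was 1.43 ± 0.20 in KO (adjusted p = 3.93e-06) and 1.73 ± 0.20 in WT (adjusted p = 3.75e-07). Without E14 WT replicate 2, the lowest of its group, the WT value was 1.53. Msmo1, the oxidase that removes methyl groups from the sterol ring, had 102, 117, 125 and 98.1 CPM in P25 KO and 114, 140.2, 101 and 149 CPM in P25 WT libraries, against 46.3, 45.8, 40.8 and 35.4 CPM in E14 KO and 47.6, 29.02, 40.5 and 48.5 CPM in E14 WT libraries. Again no P25 library came near the E14 range, and Msmo1 rose by 1.39 ± 0.18 in KO (adjusted p = 1.92e-06) and 1.61 ± 0.18 in WT (adjusted p = 2.97e-07).

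Hsd17b7, the ketosteroid reductase that works with Msmo1 and Nsdhl, had 40.8, 43.7, 42.9 and 40.7 CPM in P25 KO and 36.1, 51.6, 40.5 and 28.6 CPM in P25 WT libraries, against 21.2, 24.8, 18.1 and 21.7 CPM in E14 KO and 25.3, 20.5, 28.4 and 24.5 CPM in E14 WT libraries. Its rise was 0.97 ± 0.18 in KO (adjusted p = 0.000115) and 0.67 ± 0.18 in WT (adjusted p = 0.00322), with no overlap of stages. Ebp, the isomerase that moves the ring double bond, had 40.2, 40.9, 53.0 and 37.3 CPM in P25 KO and 47.9, 54.0, 44.6 and 62.8 CPM in P25 WT libraries, against 31.1, 24.1, 33.5 and 30.0 CPM in E14 KO and 31.8, 32.3, 17.6 and 21.1 CPM in E14 WT libraries. It rose by 0.53 ± 0.20 in KO (adjusted p = 0.0295) and 1.03 ± 0.20 in WT (adjusted p = 0.000217), and the KO call was lost without P25 KO replicate 3 and E14 KO replicate 2 (adjusted p = 0.0694 to 0.108).

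The other 4 enzymes of this chain were not called: the demethylase Cyp51, the sterol reductases Tm7sf2 and Dhcr7, and the dehydrogenase Nsdhl. Cyp51 averaged 140.2 ± 21.1 CPM in P25 KO and 157 ± 13.6 CPM in P25 WT, against 146 ± 5.06 CPM in E14 KO and 136 ± 8.43 CPM in E14 WT libraries (SD, n = 4 each). Nsdhl, the partner of Msmo1 in removing the methyl groups, averaged 82.5 ± 4.75 CPM in P25 KO and 83.0 ± 4.57 CPM in P25 WT, against 85.6 ± 13.3 CPM in E14 KO and 68.6 ± 10.1 CPM in E14 WT libraries. The log2 fold changes of the 4 lay between -0.05 (Cyp51) and 0.39 (Tm7sf2) in KO and between 0.20 (Cyp51) and 0.28 (Nsdhl) in WT. Without E14 WT replicate 2, Tm7sf2 was at 0.45 in WT and not called. Dhcr7, the reductase that ends one branch of the chain, had 145, 149, 164 and 140.4 CPM in P25 KO and 172, 163, 188 and 169.8 CPM in P25 WT libraries, against 139.6, 139, 126 and 140.5 CPM in E14 KO and 139, 232, 117 and 111 CPM in E14 WT libraries. Its one high E14 value, 232 CPM, belonged to E14 WT replicate 2, and without that library Dhcr7 rose in WT by 0.50 (adjusted p = 0.0014), against 0.21 with it (adjusted p = 0.345). Cyp51 shares bases with Akap9 on the opposite strand and Tm7sf2 with Vps51 on the same strand.

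The regulators split by function. Both INSIG genes and the sterol carrier Stard4 rose, and the SREBP genes fell. Insig1, itself a known SREBP target, had 79.6, 84.9, 90.5 and 59.3 CPM in P25 KO and 58.7, 72.1, 74.4 and 66.4 CPM in P25 WT libraries, against 27.3, 35.4, 27.5 and 25.8 CPM in E14 KO and 33.3, 36.1, 29.5 and 35.1 CPM in E14 WT libraries. With no overlap of stages, it rose by 1.44 ± 0.17 in KO (adjusted p = 3.79e-07) and 1.02 ± 0.16 in WT (adjusted p = 2.51e-05). Insig2 had 13.3, 18.8, 16.01 and 19.2 CPM in P25 KO and 17.5, 22.1, 14.9 and 21.2 CPM in P25 WT libraries, against 10.2, 9.66, 10.4 and 10.1 CPM in E14 KO and 7.93, 7.38, 10.6 and 9.24 CPM in E14 WT libraries. Its P25 libraries were likewise all above its E14 libraries, by 0.74 ± 0.19 in KO (adjusted p = 0.00222) and 1.10 ± 0.19 in WT (adjusted p = 4.83e-05). Stard4, which moves cholesterol between membranes, averaged 37.5 ± 5.87 CPM in P25 KO and 40.1 ± 6.41 CPM in P25 WT, against 21.1 ± 2.60 CPM in E14 KO and 24.6 ± 6.92 CPM in E14 WT libraries (SD, n = 4 each). It rose by 0.83 ± 0.21 in KO (adjusted p = 0.00182) and 0.70 ± 0.21 in WT (adjusted p = 0.00613).

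Srebf2, the main transcription factor of the sterol genes, had 397, 397, 392 and 348 CPM in P25 KO and 418, 373, 444 and 318 CPM in P25 WT libraries, against 593, 542, 502 and 611 CPM in E14 KO and 476, 1017, 566 and 467 CPM in E14 WT libraries. It fell by 0.55 ± 0.21 in KO (adjusted p = 0.026) and 0.70 ± 0.21 in WT (adjusted p = 0.00632) on the log2 scale, and the stages did not overlap. Srebf1, whose product drives mostly fatty acid genes, had 96.9, 102, 90.9 and 63.7 CPM in P25 KO and 91.6, 84.5, 102 and 109.8 CPM in P25 WT libraries, against 148, 125, 126 and 154 CPM in E14 KO and 113, 235, 121 and 105 CPM in E14 WT libraries. Its fall was -0.65 ± 0.22 in KO (adjusted p = 0.017) and -0.56 ± 0.22 in WT (adjusted p = 0.0351), with overlap of the WT stages. Scap, the escort of both factors, had 144, 152, 143 and 133 CPM in P25 KO and 123, 127, 139.7 and 125 CPM in P25 WT libraries, against 171, 160.1, 149 and 193 CPM in E14 KO and 158, 324, 173 and 148 CPM in E14 WT libraries. It fell in WT (-0.64 ± 0.20, adjusted p = 0.00912) and was not called in KO (-0.24 ± 0.20, adjusted p = 0.314).

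These 3 values rest in part on E14 WT replicate 2, the highest E14 WT library for each gene. Without it, the WT log2 fold change was -0.37 for Srebf2 (adjusted p = 0.0207), -0.31 for Scap (adjusted p = 0.0318) and -0.22 for Srebf1 (adjusted p = 0.236), so the Srebf1 call was lost. The WT call of Srebf1 was also lost when any of 7 other libraries was left out, with adjusted p = 0.0522 to 0.236 over all 8 (P25 KO replicate 2, P25 WT replicate 1, P25 WT replicate 2, P25 WT replicate 3, E14 KO replicate 2, E14 KO replicate 3, E14 KO replicate 4 and E14 WT replicate 2). In KO, where that library plays no part in the fold change, the Srebf1 call was lost without P25 KO replicate 4 (adjusted p = 0.0683). The KO call of Srebf2 was lost without P25 KO replicate 4, E14 KO replicate 1 and E14 KO replicate 4 (adjusted p = 0.0559 to 0.0684). Srebf1 also shares bases with Rai1 on the opposite strand.

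Among the 5 fatty acid genes, the enzymes that make palmitate fell and the enzymes that lengthen and desaturate it rose. Fasn, fatty acid synthase, had 865, 742, 816 and 545 CPM in P25 KO and 970.2, 948, 1081 and 590.4 CPM in P25 WT libraries, against 2271, 2465, 2131 and 2648 CPM in E14 KO and 1899.7, 3913, 2407 and 1855 CPM in E14 WT libraries. The highest P25 library was below the lowest E14 library, and the log2 fold change was -1.68 ± 0.24 in KO (adjusted p = 4.65e-06) and -1.49 ± 0.23 in WT (adjusted p = 1.87e-05). E14 WT replicate 2 was the highest of all, and without it the WT value was -1.19. Acaca, the carboxylase that makes malonyl-CoA for Fasn, had 165, 148, 150.0 and 141 CPM in P25 KO and 165, 181, 189 and 100.03 CPM in P25 WT libraries, against 191, 282, 186 and 257 CPM in E14 KO and 215, 274, 327 and 249.6 CPM in E14 WT libraries. The stages did not overlap within either genotype, and Acaca fell by 0.60 ± 0.20 in KO (adjusted p = 0.013) and 0.74 ± 0.20 in WT (adjusted p = 0.00301). The KO call was lost without E14 KO replicate 2 (adjusted p = 0.0555).

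Acly, which makes cytosolic acetyl-CoA for both pathways, averaged 503 ± 39.0 CPM in P25 KO and 570.2 ± 63.5 CPM in P25 WT, against 636 ± 64.2 CPM in E14 KO and 672 ± 43.6 CPM in E14 WT libraries (SD, n = 4 each). Its stages overlapped. It fell in KO (-0.34 ± 0.14, adjusted p = 0.0432), a call lost when any 1 of 12 libraries was left out (P25 KO replicate 1, P25 KO replicate 2, P25 KO replicate 4, P25 WT replicate 1, P25 WT replicate 2, P25 WT replicate 3, E14 KO replicate 2, E14 KO replicate 3, E14 KO replicate 4, E14 WT replicate 1, E14 WT replicate 3 and E14 WT replicate 4, with adjusted p = 0.0534 to 0.149), and was not called in WT (-0.24 ± 0.14, adjusted p = 0.15).

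Elovl6, which lengthens palmitate to stearate, had 91.6, 92.0, 69.5 and 73.4 CPM in P25 KO and 58.9, 56.8, 54.9 and 54.9 CPM in P25 WT libraries, against 20.3, 30.8, 23.5 and 19.9 CPM in E14 KO and 24.6, 7.80, 39.4 and 41.0 CPM in E14 WT libraries. All P25 libraries were above all E14 libraries, with log2 fold changes of 1.79 ± 0.32 in KO (adjusted p = 8.29e-05) and 1.00 ± 0.32 in WT (adjusted p = 0.0102). The lowest E14 WT value belonged to replicate 2, and without it the WT rise was 0.69. Scd2, the stearoyl-CoA desaturase of neural tissue, had 2625, 2438, 2902 and 2308 CPM in P25 KO and 2886, 3441, 3324 and 2174 CPM in P25 WT libraries, against 1708, 2099, 1627 and 1696 CPM in E14 KO and 1610.0, 1991, 1801 and 1489.8 CPM in E14 WT libraries. It rose by 0.53 ± 0.17 in KO (adjusted p = 0.0101) and 0.78 ± 0.17 in WT (adjusted p = 0.000475), with every P25 library above every E14 library.

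Genes outside the 29 place these values beside myelin. Of 16 peripheral myelin genes, 15 rose in KO and the same number in WT. Their summed level was 27625, 24369, 38254 and 17411 CPM in P25 KO and 27009.9, 26801, 29626 and 23393 CPM in P25 WT libraries, against 578, 614, 694 and 623 CPM in E14 KO and 677, 748, 527 and 583 CPM in E14 WT libraries. The summed level of the 8 genes from lanosterol to cholesterol moved in the same direction on a far smaller scale, with 671, 726, 787 and 676 CPM in P25 KO and 749, 833, 737 and 828 CPM in P25 WT, against 533, 547, 521 and 561 CPM in E14 KO and 558, 596, 474 and 489.8 CPM in E14 WT libraries. The mevalonate sum averaged 1078 (P25 KO) and 1166 CPM (P25 WT), against 975 (E14 KO) and 885 CPM (E14 WT). The sum for squalene and lanosterol averaged 539 (P25 KO) and 621 CPM (P25 WT), against 522 (E14 KO) and 501 CPM (E14 WT). The sums of the other 2 role groups and of all 29 genes had lower means at P25. The 5 fatty acid genes summed to 4228, 3911, 4499 and 3546 CPM in P25 KO and 4694, 5211, 5253 and 3396 CPM in P25 WT, against 4748, 5529, 4589 and 5333 CPM in E14 KO and 4356, 6873, 5269.7 and 4335 CPM in E14 WT libraries. The 6 regulators and carriers averaged 748 ± 63.1 CPM in P25 KO and 741 ± 59.8 CPM in P25 WT, against 929 ± 79.8 CPM in E14 KO and 1042 ± 399 CPM in E14 WT libraries (SD, n = 4 each). All 29 together averaged 7126 ± 645 CPM in P25 KO and 7954 ± 801 CPM in P25 WT, against 8016 ± 487 CPM in E14 KO and 8166 ± 1629 CPM in E14 WT libraries. Fasn weighs heavily in the fatty acid sum and in the sum of all 29. Its mean fell from 2379 to 742 CPM in KO and from 2519 to 897 CPM in WT. In each genotype this fall was larger than that of either sum. Of 10 genes for the sphingolipids of myelin, 8 rose in each genotype and none fell. Ugt8a, the galactosyltransferase that makes galactosylceramide, had 145, 173, 155 and 129 CPM in P25 KO and 148, 149, 116 and 99.6 CPM in P25 WT libraries, against 3.47, 6.48, 7.63 and 6.43 CPM in E14 KO and 5.18, 0.671, 4.60 and 5.87 CPM in E14 WT libraries. Fa2h, which hydroxylates the fatty acids of myelin lipids, was at 117 to 178 CPM in P25 KO and 135 to 193 CPM in P25 WT libraries, against 0 to 0.373 CPM in E14 KO and 0.122 to 0.367 CPM in E14 WT libraries.

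Of 26 further fatty acid genes, 12 rose and 5 fell in KO, and 15 rose and 4 fell in WT. These and the list counts below stand beside 59.8% of all genes called in KO and 59.6% in WT, and are read as no more than a description. Elovl7, an elongase of long fatty acids, had 66.6, 75.2, 51.5 and 77.0 CPM in P25 KO and 54.5, 75.6, 54.6 and 55.0 CPM in P25 WT libraries, against 4.42, 7.98, 3.79 and 5.33 CPM in E14 KO and 6.69, 4.88, 8.47 and 10.3 CPM in E14 WT libraries. Its log2 fold change was 3.64 ± 0.26 in KO (adjusted p = 4.66e-10) and 2.98 ± 0.25 in WT (adjusted p = 5.29e-09). Hacd1, a dehydratase of the elongation cycle, fell by 1.93 ± 0.21 in KO (adjusted p = 1.3e-07) and 1.85 ± 0.21 in WT (adjusted p = 2.1e-07). Of 12 further isoprenoid and sterol-sensing genes, 2 rose and 3 fell in each genotype. The 2 that rose were the subunits of the dolichol-making enzyme, Dhdds (0.99 in KO, 1.03 in WT) and Nus1 (1.05 in KO, 0.75 in WT). The 2 largest called falls were those of Pdss1 (-1.04) and Mbtps2 (-0.96) in KO, and of Mbtps2 (-1.09) and Erlin2 (-1.03) in WT. Erlin2 in KO had 35.1 to 41.1 CPM at P25 against 56.7 to 81.5 CPM at E14. Pdss1 in WT had 1.36 to 3.02 CPM at P25 against 2.80 to 5.69 CPM at E14. Of 19 tested genes of sterol export, storage and turnover, 11 rose and 1 fell in each genotype. Apod, a lipid-binding protein of glia, had 835, 987, 923 and 1006 CPM in P25 KO and 1067, 1388, 975 and 1810.2 CPM in P25 WT libraries, against 29.4, 12.3, 16.9 and 18.7 CPM in E14 KO and 15.5, 11.5, 10.9 and 19.5 CPM in E14 WT libraries.

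Other cell contents moved with the stage as well. The summed level of 12 cell cycle genes was 47.7 to 61.4 CPM in P25 KO and 42.4 to 53.5 CPM in P25 WT, against 179 to 249.5 CPM in E14 KO and 179 to 248 CPM in E14 WT libraries, and 11 of the 12 fell in each genotype. The 6 erythroid genes summed to 75.9 to 113 CPM in P25 KO and 46.3 to 103 CPM in P25 WT, against 616 to 1047 CPM in E14 KO and 488 to 969 CPM in E14 WT libraries. Oligodendrocyte genes, which belong to central myelin at the nerve root, summed to 92.1, 62.7, 105 and 44.5 CPM in P25 KO and 70.1, 21.6, 1.58 and 90.5 CPM in P25 WT libraries, against 0 to 0.116 CPM in E14 KO and 0 to 0.183 CPM in E14 WT libraries. The adipocyte list of 10 summed to 87.6 to 116 CPM in P25 KO and 71.3 to 103 CPM in P25 WT, against 39.9 to 44.9 CPM in E14 KO and 37.1 to 57.5 CPM in E14 WT libraries, and 4 of its genes were tested. Of these, 3 rose in each genotype: Plin4 (4.74 in KO, 3.03 in WT), Cidea (0.89 in KO, 1.18 in WT) and Pnpla2 (1.96 in KO, 1.73 in WT). Lipe fell (-0.61 in KO, -0.65 in WT). Plin4 was at 0.288 to 17.3 CPM in P25 KO libraries, with replicate 4 the highest, and at 0.483 to 1.14 CPM in P25 WT libraries. The defining members Adipoq, Plin1, Cidec, Retn and Cfd were at or below 0.505 CPM in all libraries, and Lep was at 0. The part of changing cell content in the values of the 29 genes was not tested.

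**Figure D3:**
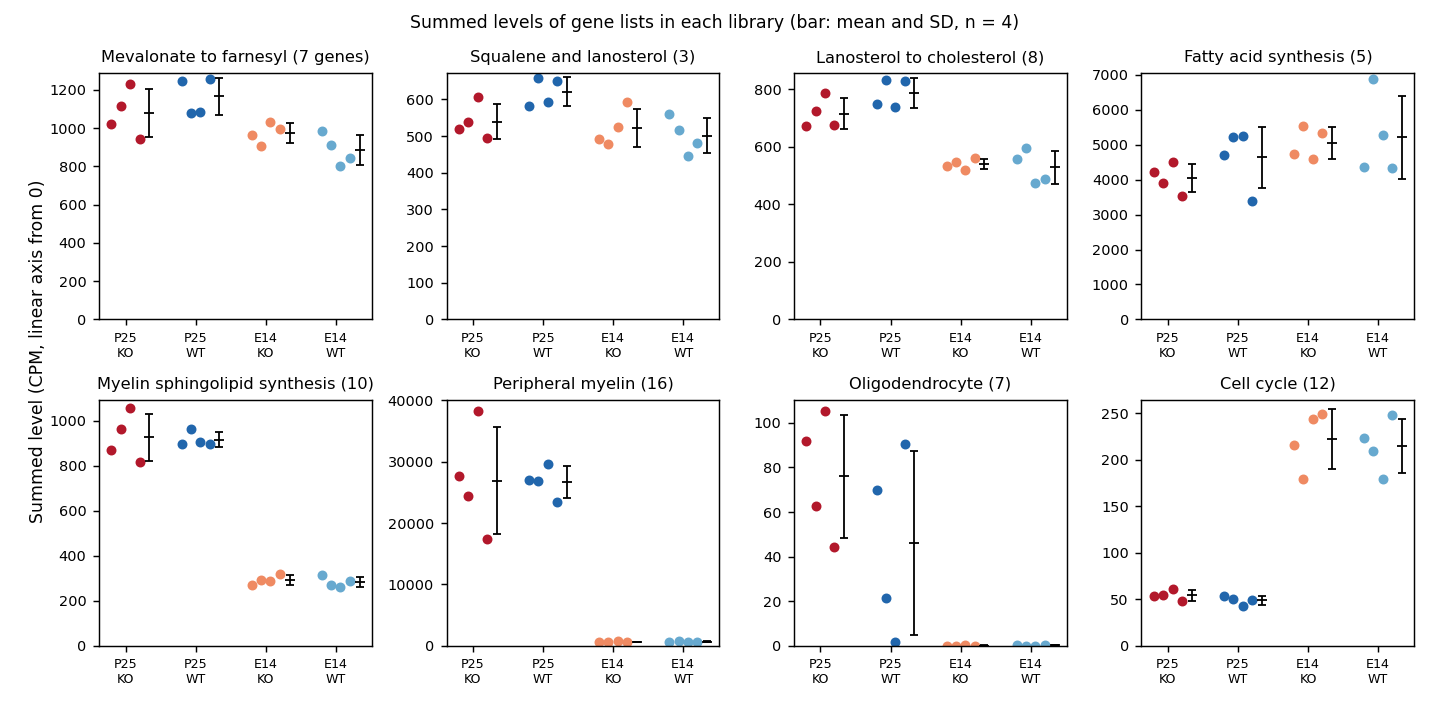
Summed level in CPM on linear axes from 0 (y axis) of 4 role groups of the 29 genes (upper panels) and of 4 further lists (lower panels) in every library, with P25 KO, P25 WT, E14 KO and E14 WT from left to right (x axis). Points are libraries and bars are the mean and SD of 4. Peripheral myelin sums lie at 17411 to 38254 CPM at P25 and at 527 to 748 CPM at E14, while the sums from lanosterol to cholesterol lie at 671 to 833 CPM and 474 to 596 CPM.

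The genotype comparison asks whether loss of Nogo-A goes with a change in these genes at either age. At P25, none of the 29 was called, at a background of 0.0463% of all genes (7 of 15109). None reached an unadjusted p under 0.05 in the main edgeR fit, and DESeq2 called none. With offsets for GC content and length, 2 members had an unadjusted p under 0.05 and none was called. The log2 fold changes of KO over WT ran from -0.33 (Fdps) to 0.53 (Elovl6), 23 of 29 were negative, and the median was -0.10 beside -0.02 over all genes. P25 KO replicate 4, the lowest of its group for most members, bears on that median, which was -0.07 without it and -0.14 without P25 KO replicate 3 or P25 WT replicate 3.

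Elovl6 was the one member whose P25 groups did not overlap: 91.6, 92.0, 69.5 and 73.4 CPM in P25 KO libraries were all above 58.9, 56.8, 54.9 and 54.9 CPM in P25 WT libraries. Over all genes tested, 3.32% had no overlap at P25. The log2 fold change was 0.53 ± 0.31, with an unadjusted p of 0.102 and adjusted p = 1 by edgeR, so the difference did not pass the test. Fdps had 195, 249, 292 and 207 CPM in P25 KO against 289, 263, 249 and 384 CPM in P25 WT libraries (-0.33 ± 0.20, adjusted p = 1), and Ebp had 40.2, 40.9, 53.0 and 37.3 against 47.9, 54.0, 44.6 and 62.8 CPM (-0.29 ± 0.20, adjusted p = 1). The ranges overlapped in both. The SE of the members at P25 ran from 0.14 to 0.32, which sets the size of a difference that 4 libraries a group could show.

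Myelin genes were not called by genotype either. The peripheral myelin sums given above overlapped at P25, with the highest and the lowest in P25 KO replicates 3 and 4. Egr2, the transcription factor of Schwann cell myelination, was chosen after its values were seen: it had 73.6, 71.5, 98.6 and 39.2 CPM in P25 KO against 32.7, 32.4, 43.5 and 26.5 CPM in P25 WT libraries, with a log2 fold change of 1.07 ± 0.28 and adjusted p = 0.645. At E14, Egr2 had 0.948, 0.886, 2.10 and 1.00 CPM in KO against 0.550, 0.976, 0.284 and 0.482 CPM in WT libraries. These E14 levels were low and overlapped. The oligodendrocyte sums also overlapped between the P25 groups.

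**Figure D4:**
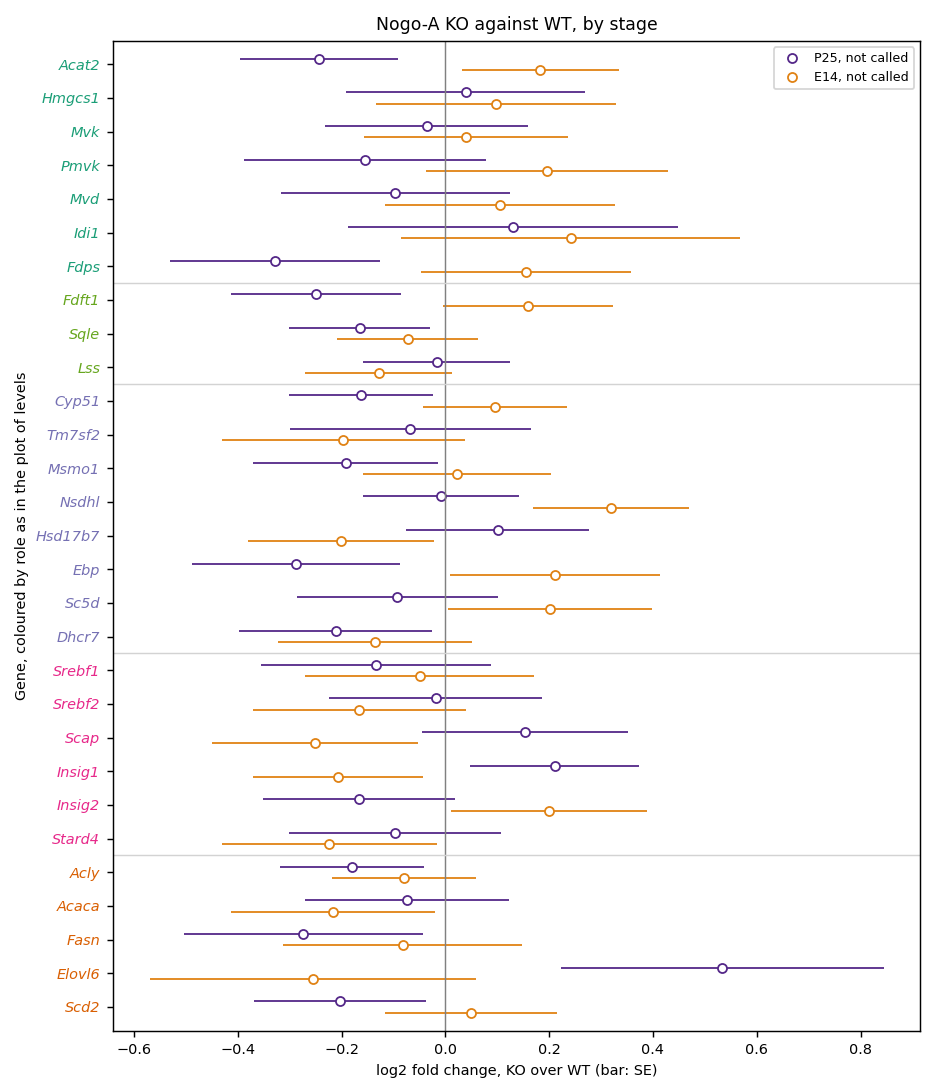
Log2 fold change of KO over WT (x axis) for each of the 29 genes (y axis, ordered and coloured by role) at P25 (purple) and E14 (orange). Points are open because no gene was called, and bars are 1 SE. Elovl6 at P25, at 0.53, lies furthest from 0.

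At E14, none of the 29 was called at a background of 0.0199% (3 of 15109), and all 29 overlapped between KO and WT, where 1.63% of all genes had no overlap. DESeq2 called none. Only Nsdhl had an unadjusted p under 0.05 in the main edgeR fit: 68.5, 86.0, 86.9 and 101 CPM in E14 KO against 81.6, 58.9, 62.8 and 71.0 CPM in E14 WT libraries, a log2 fold change of 0.32 ± 0.15, unadjusted p = 0.047 and adjusted p = 0.942. Log2 fold changes ran from -0.26 (Elovl6) to 0.32 (Nsdhl), 15 were positive and 14 negative, and the median was 0.02 beside -0.04 over all genes. Without E14 WT replicate 2, Elovl6 was at -0.56, and the median ran from -0.02 to 0.08 when each library was left out in turn. By role, all 7 genes of the mevalonate arm had positive values, between 0.04 (Mvk) and 0.24 (Idi1), none past the test. That sign rests on E14 WT replicate 2: without it Hmgcs1 was at -0.12 and Idi1 at -0.07, and the other 5 lay between 0.23 (Acat2) and 0.33 (Pmvk).

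The difference between the genotype effects at P25 and at E14 was tested with an interaction term. No member passed, where 0% of all genes did. None had an unadjusted p under 0.05 in the main edgeR fit, and DESeq2 called none. Without E14 WT replicate 2, 4 members had an unadjusted p under 0.05, and 5 did with offsets for GC content and length. None was called in either fit. The values ran from -0.50 (Ebp) to 0.79 (Elovl6), and the median of the 29 was -0.10 beside 0.05 over all genes. For Elovl6 the difference was 0.79 ± 0.44 (adjusted p = 0.993), for Ebp -0.50 ± 0.28 (adjusted p = 0.993) and for Acat2, which fell with stage in both genotypes, -0.43 ± 0.21 (adjusted p = 0.993). Without E14 WT replicate 2, the value of Elovl6 was 1.10 (adjusted p = 0.142). A value that missed the threshold does not show that the genotypes responded alike.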

How the data were processed

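RNA from 16 libraries of whole mouse trigeminal ganglia, 4 per group, was extracted with TRIzol and sequenced from TruSeq stranded mRNA libraries, per the labels' protocols. Groups and replicate numbers came from the sample titles. Each deposited file lists an estimated count for every gene, rounded by the authors to whole numbers. Per the submitters' processing notes, the tools included kallisto 0.46, fastp 0.20.0 and DESeq2 1.32.0, and the assembly was GRCm39. The notes state no role or order. Whether counting used the strand, and with which transcript annotation, is not given in the sources used here. Since such counts are a model's estimate where transcripts are alike, overlapping or near-identical genes are less certain. Library totals ran from 15532373 to 29562379, and deeper libraries give smaller counting error.

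Symbols were found for 25614 of 25719 identifiers. Counts were analysed in R 4.3.3 with edgeR 4.0.16. Libraries were scaled by TMM, filterByExpr kept 15109 genes, and a single model with 4 group means was fitted to the 16 libraries. Its quasi-likelihood F test gave p-values, which were adjusted by the Benjamini-Hochberg method over all genes with 0.05 as the threshold. The same script was tested on simulated counts. Standard errors come from the F statistic, and levels in CPM use TMM-scaled totals. DESeq2 1.42.0 was an alternative, beside other scalings, other filters, a replicate block, summed same-numbered ganglia, fits to the compared groups alone and leaving out each library. Offsets for GC content and length were added after the data were seen.

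All 29 genes were named whatever their values. Of each other list, the called genes of largest change at a mean of at least 1 CPM could be named. Egr2, and the adipocyte genes other than Plin4 and Lipe, were named outside this rule. The members and the lists were chosen with earlier results of these data known, so no test was made over a list. Promoters and positions are from RefSeq and an annotation of GRCm38, not the assembly of the notes. Figures were drawn with matplotlib 3.10.9.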

Additional observations from a re-analysis of the deposited data

Results flagged for a closer look

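For each of the 29 genes, each group of 4 libraries was checked for a library whose gap to its neighbour took up more of the group's range than Dixon's 95% critical value for 4 values allows. Of 116 groups, 9 met this, where chance gives about 1 in 20. E14 WT replicate 2 accounted for 4 of them: it was the lowest of its group for Idi1 (2.13 CPM) and Sc5d (14.6 CPM) and the highest for Srebf1 (235 CPM) and Scap (324 CPM). E14 WT replicate 1 was the highest of its group for Cyp51 (149 CPM) and the lowest for Acly (607 CPM). E14 KO replicate 3 was the lowest of its group for Dhcr7 (126 CPM). P25 KO replicate 4 was the lowest of its group for Srebf2 (348 CPM), and P25 KO replicate 3 was the highest of its group for Acly (561 CPM). E14 WT replicate 2 is also the library whose deviations went most with GC content and length, and the part of that in these values was not tested.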

How the results depend on the processing

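Directions and calls were recomputed under 8 other settings, under offsets for GC content and length chosen after the data were seen, and without each library in turn. No called member reversed. Members called by stage numbered 18 in KO (16 to 20 under the alternatives, 14 to 19 with 1 library left out) and 20 in WT (17 to 22, and 19 to 22). None was called by genotype under any of these settings, nor by the interaction, which has no fit to the compared groups alone. The median log2 fold change of the members, stage by genotype, was -0.0998, and -0.186 when same-numbered ganglia were summed. With 1 library left out it ran from -0.201 to -0.0994 for stage by genotype, from -0.022 to 0.0785 for the genotype at E14 (0.0222 with all libraries, 0.0847 with same-numbered ganglia summed), from -0.145 to -0.0682 for the genotype at P25, from -0.0219 to 0.195 for the stage in KO and from 0.270 to 0.450 for the stage in WT. The median of all genes for the stage in KO, 0.01, was 0.16 with DESeq2 and 0.17 with no low-count filter. Both settings keep genes of low count, so these medians cover a wider set of genes than the main fit. The KO median of the members was 0.17 with DESeq2 and 0.18 with no low-count filter, against 0.13 in the main fit. Replicate numbers did not pair the samples: deviations of same-numbered libraries correlated between -0.49 and 0.31. With the replicate number as a block, 16 members were called in KO and 19 in WT, without Lss and Acly in KO and Srebf1 in WT, and none by genotype. Calls of Sqle, Pmvk, Dhcr7, Tm7sf2, Lss, Acly, Fdft1 and Srebf1 changed under 1 or more settings other than leaving out a library. Genotype differences well above the SE, which was 0.14 to 0.32 at P25, could also be missed with 4 libraries a group.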
